A study of Homo sapiens with 30 samples.

Results

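The MEG3-DLK1 locus on human chromosome 14 was followed through 5 of its genes, MEG3, MEG8, MEG9, DLK1 and RTL1. All 5 were matched by Ensembl identifier among the 60664 genes of the per-library count tables. The study tested how loss of DNA methylation changes CTCF binding, chromatin looping and transcription in cell lines, and whether CTCF takes part. In a separate experiment without loss of methylation, the study depleted nuclear speckles and followed RNA abundance, CTCF binding and looping. It gave 30 poly(A) RNA-seq libraries in 10 groups of 3 separate cultures.

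The locus is imprinted, which means that its genes are read from 1 parental chromosome. In normal tissue the protein-coding genes DLK1 and RTL1 are expressed from the paternal copy, and the long noncoding RNAs MEG3, MEG8 and MEG9 from the maternal copy. Methylated regions upstream of and at the MEG3 promoter mark the silent paternal copy of the noncoding RNAs. DNMT1 restores CpG methylation after each round of DNA replication, so that an inhibitor of this enzyme dilutes methylation as cells divide. Counts per gene do not separate the parental copies.

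Wild-type K562, an erythroleukaemia line, and wild-type HCT116, a colorectal carcinoma line, were kept for 3 days in 10 µM of a DNMT1 inhibitor (DNMT1i) or in its solvent, DMSO, at 0.1%. The inhibitor is written GSK3482364 in the study's methods and GSK3484862 in its results, and the labels give no compound code. HT-CTCF cells are a single-cell clone of HCT116 in which both copies of CTCF carry a HaloTag. Their treatment with DNMT1i or DMSO lasted 1 day. It was given alone or together with HaloPROTAC3, which degrades the tagged CTCF and was present before and during the treatment. A further single-cell clone of K562 carried degron tags on SON and SRRM2, the core proteins of nuclear speckles, and was given 500 nM dTAG-13 or DMSO for 6 hr. Every result in the tagged lines therefore rests on 1 clone per line. Per library, 16173008 to 21228534 reads were counted in genes in the 18 wild-type and speckle libraries, and 4243092 to 9407430 in the 12 HT-CTCF libraries. Of 12 erythroid markers, 11 reached 1 CPM (the count of a gene scaled to a library total of 1000000) in every K562 group and 2 in every HCT116 and HT-CTCF group. Of 10 HCT116 markers, 6 or 7 reached 1 CPM in the HCT116 and HT-CTCF groups and 4 to 6 in the K562 groups, with 6 in K562 DNMT1i. That count separated the lines poorly, while the summed level per library was 3078 to 4514 CPM in the former and 432 to 1086 CPM in the latter.

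All coordinates are on hg38. MEG3 (ENSG00000214548) spans chr14:100779410-100861031 on the plus strand. DLK1 (ENSG00000185559) lies upstream of it at chr14:100725705-100738224, also on the plus strand. RTL1 (ENSG00000254656) lies downstream at chr14:100879753-100903722 on the minus strand, and MEG8 (ENSG00000225746) overlaps its upstream end at chr14:100894770-101038859 on the plus strand. The exon bins counted for MEG9 (ENSG00000223403) run from chr14:101068283-101072937, again on the plus strand. MEG3, MEG8 and MEG9 are annotated as long noncoding RNAs, and DLK1 and RTL1 as protein-coding.

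RefSeq promoter windows, each with 250 bases before and 50 after an annotated start, were matched for 3 of the 5 genes on GRCh38.p14. The 2 windows below belong to noncoding RNAs that were induced by DNMT1i, and they differ in the number of CpG dinucleotides, the substrate of DNMT1, which stand in capitals. The MEG3 window is the first of 3 overlapping entries, chr14:100825858-100826157, and the MEG9 window is chr14:101069661-101069960, both on the plus strand.
MEG3: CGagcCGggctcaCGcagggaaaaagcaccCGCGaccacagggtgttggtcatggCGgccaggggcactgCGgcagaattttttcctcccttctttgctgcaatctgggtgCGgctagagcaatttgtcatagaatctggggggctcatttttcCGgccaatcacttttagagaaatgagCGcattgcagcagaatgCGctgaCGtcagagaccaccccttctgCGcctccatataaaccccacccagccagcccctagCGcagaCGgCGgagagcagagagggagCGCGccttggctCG
MEG9: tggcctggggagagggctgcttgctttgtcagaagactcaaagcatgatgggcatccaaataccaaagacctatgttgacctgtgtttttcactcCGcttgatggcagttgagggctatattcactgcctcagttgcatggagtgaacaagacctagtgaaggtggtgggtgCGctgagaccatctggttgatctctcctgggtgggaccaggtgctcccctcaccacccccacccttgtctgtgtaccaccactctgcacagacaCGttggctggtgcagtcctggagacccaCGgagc
The MEG3 window held 19 CpGs, against a median of 14 over 35116 RefSeq windows of the same length, and 57.1% of those windows held fewer. The MEG9 window held 4 CpGs, with 24.5% of windows holding fewer, and the RTL1 window held 6. The hexamer TGCCGC, the letters bound by the imprint regulator ZFP57 when methylated, was searched on both strands and occurred 1 time in the MEG3 window and not in the MEG9 and RTL1 windows. It occurred in 16.7% of all windows. The letters GGNGGCAG, a part of the CTCF consensus searched in the same way, were in none of the 3 windows and in 16.7% of all windows. Exact letters in these windows do not show whether CTCF binds at the locus. By CTCF ChIP-seq, the study marks peaks specific to DNMT1i at the MEG3 locus in K562 and HCT116.

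MEG3 was close to silent in DMSO and abundant after 3 days of DNMT1i in both wild-type lines. In K562 the 3 DMSO libraries held 0.239, 0.703 and 0.181 CPM, and the 3 DNMT1i libraries 137, 99.1 and 127 CPM. In HCT116 the DMSO libraries held 0.173, 0.107 and 0.169 CPM and the DNMT1i libraries 71.0, 77.3 and 66.2 CPM. The treated and control libraries were far apart in each line, and every treated K562 library was above every treated HCT116 library. The means after DNMT1i were 121 ± 19.5 CPM in K562 and 71.5 ± 5.52 CPM in HCT116 (SD, n = 3 each). The log2 fold change was 8.30 ± 0.27 (SE) in K562, adjusted p = 1.44e-08, and 8.74 ± 0.18 in HCT116, adjusted p = 1.14e-18 (edgeR quasi-likelihood test, Benjamini-Hochberg over all genes tested). The counts behind the DMSO levels were 20 in K562 and 8 in HCT116, so the size of either fold rests on few reads. The ratio of summed counts was 333 in K562 (95% exact counting interval 215 to 546) and 482 in HCT116 (245 to 1118). Such intervals cover counting error only. In bulk RNA, fewer expressing cells and less RNA per cell cannot be told apart.

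In K562, 3 of the 4 genes of the locus that could be tested were called at an adjusted p below 0.05, against 8.84% of all 13726 genes tested. In HCT116, 4 of 4 were called, but 61.6% of all 15885 genes tested were called there. In HCT116 the size of a change therefore tells more than the call. MEG3, MEG8 and MEG9 passed the filter on low counts in both lines only through the DNMT1i libraries. Their DMSO groups held 20, 8 and 1 counts in K562 and 8, 3 and 0 in HCT116. Being testable already meant being high in DNMT1i, so the shares called and the adjusted p-values of these RNAs are given as values only. Of the 13726 genes in K562, 21 had a larger fitted log2 fold change than MEG3, 92 than MEG8 and 121 than MEG9. Of the 15885 in HCT116, 179 had a larger one than MEG3, 358 than MEG8 and 1626 than DLK1.

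MEG8, the host RNA of clustered C/D box small nucleolar RNAs, rose with MEG3. In K562 the DMSO libraries held 0.143, 0.234 and 0.0602 CPM, and the DNMT1i libraries 12.9, 12.1 and 11.7 CPM. In HCT116 they held 0.0576, 0.107 and 0 CPM in DMSO, and 14.1, 15.1 and 14.1 CPM in DNMT1i. The lowest treated library in either line was well above the highest control, and the treated levels of both lines lay near each other. The log2 fold change was 6.28 ± 0.25 in K562, adjusted p = 4.51e-08, and 7.75 ± 0.29 in HCT116, adjusted p = 1.33e-14 (edgeR). The ratio of summed counts was 83.5 (42.1 to 194) in K562 and 260 (88.5 to 1262) in HCT116.

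MEG9, the most distal of the noncoding RNAs, showed the same pattern at a lower level. The 3 DNMT1i libraries held 29, 19 and 25 counts in K562 and 38, 51 and 30 counts in HCT116. Among the DMSO libraries a single count was seen, in K562 replicate 2. The treated libraries stood at 1.29 ± 0.18 CPM in K562 and 2.08 ± 0.420 CPM in HCT116 (SD, n = 3 each). The ratio was 71.0 in K562, with an interval of 12.3 to 2842. In HCT116 the level in DNMT1i was 37.4-fold higher than a floor of 3 counts over the 3 DMSO libraries. The lower end of the exact counting interval for the ratio was 29.9. The edgeR test gave MEG9 an adjusted p of 0.000117 in K562 and 1.71e-08 in HCT116. MEG9 entered both tests only through the DNMT1i libraries, so these are given as values only.

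Within a treated library, MEG8 and MEG9 made up a larger share of the noncoding output of the locus in HCT116 than in K562. MEG8 counts were 9.42%, 12.2% and 9.20% of MEG3 counts in the K562 DNMT1i libraries and 19.9%, 19.6% and 21.3% in the HCT116 DNMT1i libraries. MEG9 counts were 1.07 ± 0.0677% of MEG3 counts in K562 and 2.89 ± 0.405% in HCT116 (SD, n = 3 each). The lines did not overlap for either RNA, with HCT116 higher by 1.97-fold for MEG8 and 2.69-fold for MEG9. An exact two-sided permutation test of 3 against 3 gave p = 0.1 for each, the smallest value this design allows. These ratios were chosen after the counts were seen.

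**Figure D1:**
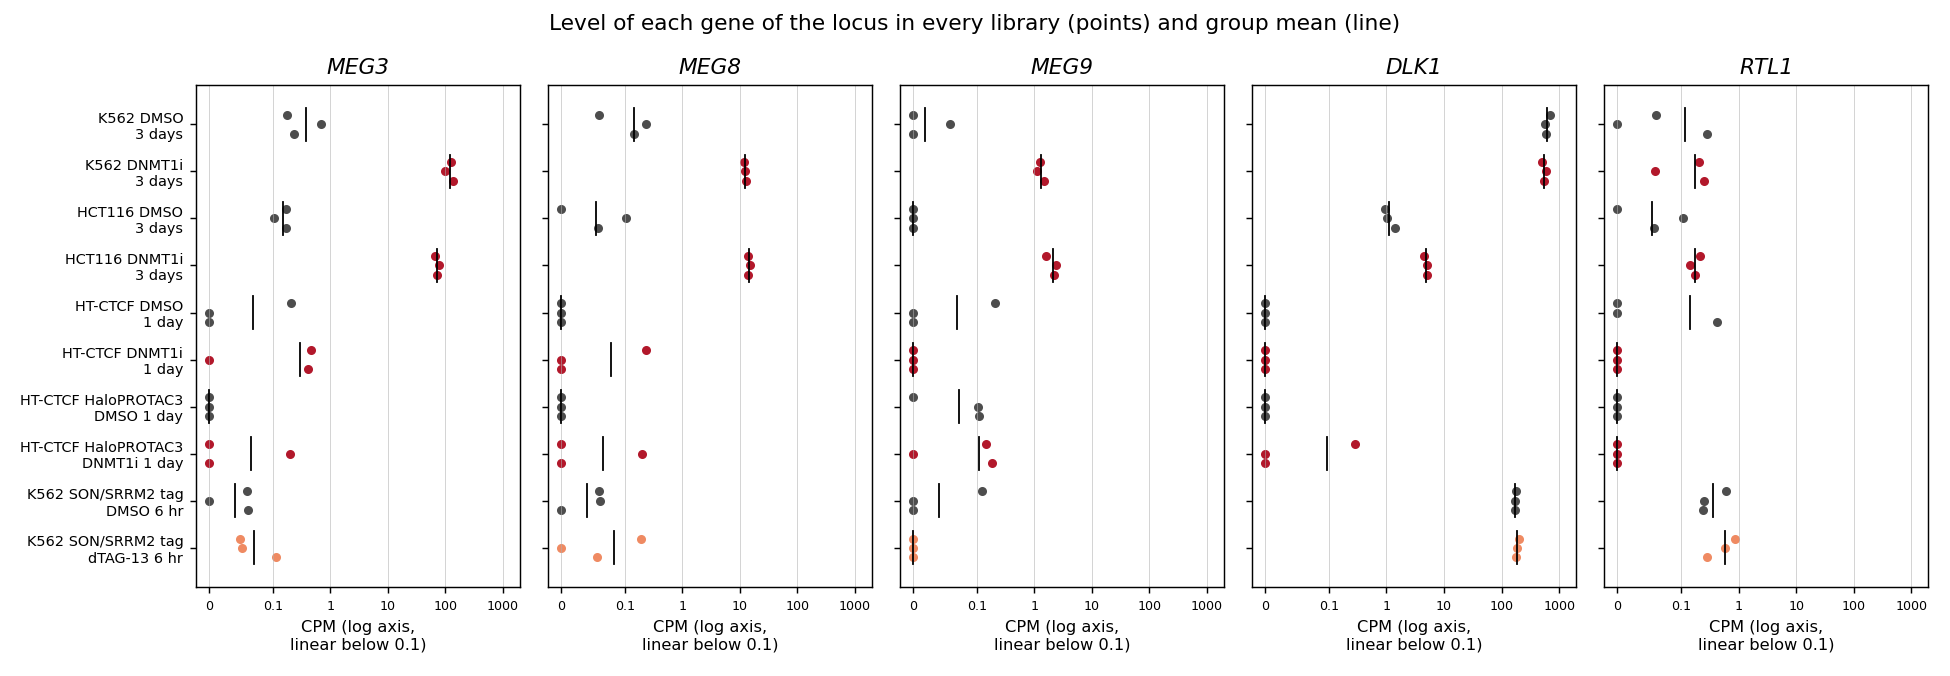
Level of each gene in CPM (x axis, logarithmic above 0.1 and linear below) in the 10 groups (y axis), with a point per library and a line at the group mean. DNMT1i libraries are red, dTAG-13 libraries orange and DMSO libraries grey. MEG3, MEG8 and MEG9 are high in the 6 wild-type DNMT1i libraries alone, and DLK1 is high in all 12 K562 libraries.

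DLK1 encodes a membrane-anchored protein of the Notch ligand type that restrains differentiation. Its level differed between the lines before any treatment. In K562 the DMSO libraries held 593, 561.7 and 683 CPM, and the DNMT1i libraries 543, 597 and 499 CPM, so that the groups overlapped. The log2 fold change was −0.21 ± 0.10, adjusted p = 0.261 (edgeR). In HCT116 DLK1 stood at 1.38, 1.02 and 0.958 CPM in DMSO and at 5.15, 5.04 and 4.54 CPM in DNMT1i, with no overlap. It rose there by 2.02 ± 0.20 on the log2 scale, adjusted p = 4.71e-08. Even so, DLK1 after DNMT1i was 111-fold lower in HCT116 than in K562 by summed counts, with an interval of 98.5 to 125. Per kb of exon, DLK1 in K562 DMSO stood at 117 CPM per kb, while MEG3 in K562 DNMT1i reached 5.28 CPM per kb and MEG8 0.501 CPM per kb. The length used is the union of all annotated exons, 5247 bases for DLK1, 22913 for MEG3 and 24423 for MEG8. It includes long stretches of MEG3 and MEG8 with few reads, which lower their values. A MEG3 stretch of 5088 bases stood at 0.628 CPM per kb in K562 DNMT1i. The gap between the genes therefore depends on the annotation.

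RTL1, a retrotransposon-derived gene with roles in placenta and muscle, was at the limit of detection. It had 10 counts over the 3 libraries of the K562 DNMT1i group and 7 in K562 DMSO. In HCT116 it had 10 in DNMT1i and 3 in DMSO. The ratio of summed counts was 1.39 (0.477 to 4.30) in K562 and 3.14 (0.809 to 17.8) in HCT116. RTL1 did not pass the filter on low counts in any comparison, and no change was detectable at this depth. In every wild-type group these counts fell in 1 of the 4 RTL1 bins, the long bin 1. How the counting treated strand is not stated in any source used here, so reads from an RNA on the opposite strand could not be told apart from RTL1.

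The response of DLK1 differed between the lines when the difference itself was tested, and the same test did not pass for the noncoding RNAs. The K562 response of DLK1 minus its HCT116 response was −2.22 ± 0.21 on the log2 scale, adjusted p = 1.78e-07 (edgeR). The same difference was −0.43 ± 0.62 for MEG3, adjusted p = 0.661, and −1.46 ± 0.77 for MEG8, adjusted p = 0.197. For MEG9 it was −2.53 ± 1.81, adjusted p = 0.324. Thus 1 of 4 tested genes was called, against 29.8% of all 17237 genes tested. The standard errors of the noncoding RNAs rest on few DMSO counts, and a difference between the lines was not detectable for them at this depth. Without K562 DMSO replicate 2, which held 12 of the 20 MEG3 counts of its group, the MEG3 difference turned to 0.33, adjusted p = 0.829.

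In DMSO, DLK1 was 9.07 ± 0.17 higher in K562 than in HCT116 on the log2 scale, adjusted p = 8.76e-14 (edgeR). It was the 1 member tested in that comparison, in which 79.3% of all genes were called. MEG3, MEG8 and MEG9 did not pass the filter on low counts there. Where DESeq2 or a fit without the filter tested them, MEG3 had adjusted p from 0.125 to 0.262, MEG8 from 0.376 to 0.474 and MEG9 0.469.

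Within 1 Mb outside the imprinted domain no tested gene changed as much as the noncoding RNAs. In K562, 7 genes on the DLK1 side and 11 on the DIO3 side were tested. Of these 18, 3 passed, against 8.84% of all genes tested. The log2 fold changes of all 18, passed or not, lay between −0.66 and 1.12. In HCT116, 11 of 21 passed, against 61.6% of all genes tested, and all 21 lay between −0.83 and 0.59. BEGAIN, the nearest tested gene on the DLK1 side, changed by −0.14 ± 0.33 in K562, adjusted p = 0.861, and rose by 0.57 ± 0.15 in HCT116, adjusted p = 0.00264. ENSG00000241494, the nearest on the other side, changed by −0.59 ± 0.25 in K562, adjusted p = 0.196, and by −0.69 ± 0.22 in HCT116, adjusted p = 0.00985. DIO3, the thyroid hormone deiodinase that closes the imprinted domain, had 40 counts in HCT116 DNMT1i and 17 in DMSO and rose by 1.03 ± 0.41, adjusted p = 0.0381. In K562 it had 1 count in DNMT1i and 0 in DMSO.

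**Figure D2:**
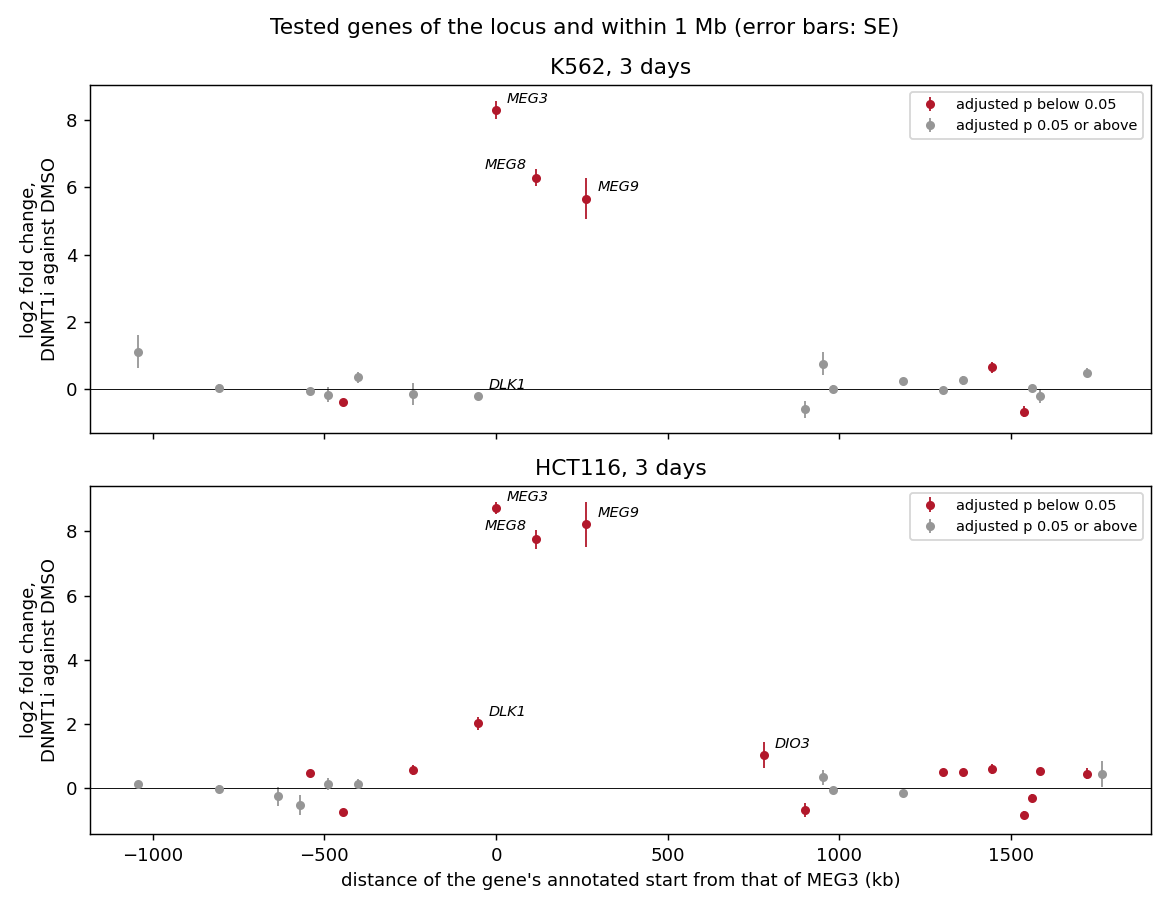
Log2 fold change of DNMT1i against DMSO (y axis, error bars SE) for the tested genes of the locus and within 1 Mb, by distance of the annotated start from that of MEG3 in kb (x axis), in K562 (top) and HCT116 (bottom). Red points have an adjusted p below 0.05. MEG3, MEG8 and MEG9 lie between 5.67 and 8.74, and the genes outside the imprinted domain lie between −0.83 and 1.12.

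Between DLK1 and DIO3, the 40 genes with a SNORD symbol, for small nucleolar RNAs, were summed. They held 72 counts in K562 DNMT1i and 71 in HCT116 DNMT1i, against 1 and 0 in DMSO. SNORD113-3 held 32 and 44 of these counts. The 55 genes with a microRNA symbol summed to 10 and 6 counts in the treated groups and to 0 and 1 in DMSO. They include the long noncoding host gene MIR493HG, which held 4 of the 10 counts in K562 DNMT1i. Poly(A) libraries of this kind do not capture mature small RNAs well, and these reads cannot be told apart from fragments of a longer host RNA. The gene annotated antisense to MEG3, ENSG00000258663, had 0 counts in all 30 libraries. It lies within the span of MEG3, and how strand was treated in counting is not stated. These 0 counts therefore do not show that no antisense RNA was made.

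Exon bins, which cut the annotated exons of a gene into non-overlapping pieces, placed the MEG3 reads. A read that spans several bins is counted in each. The 2 bins upstream of the RefSeq start of MEG3 held 0 counts in all 18 libraries with bin counts, and the other 107 bins held 13914 in K562 DNMT1i and 8847 in HCT116 DNMT1i. Bin 11, which begins inside the MEG3 window printed above and runs past its end, held 2.93 ± 0.475 CPM in K562 DNMT1i and 3.08 ± 0.767 CPM in HCT116 DNMT1i (SD, n = 3 each). The lines overlapped in this bin near the start, although the level of the whole gene was higher in every K562 library.

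The composition of the MEG3 transcript differed between the treated lines downstream of the start, while near the start bin 11 alone was called, close to the threshold. Over the 123 bins of the locus that could be tested, 8 differed in relative use between K562 and HCT116 in DNMT1i, or 6 of MEG3, 1 of MEG8 and 1 of DLK1. Over all genes 3.31% of bins were called (edgeR diffSpliceDGE, Benjamini-Hochberg over all bins). MEG3 bins 45 and 46 were used more in K562, by 0.64 and 0.55 on the log2 scale relative to the gene, adjusted p = 0.025 and 0.0259. Bin 46 took 6.70%, 6.96% and 7.87% of the MEG3 bin counts in K562 and 4.75%, 4.67% and 5.31% in HCT116, with no overlap. Bin 73, a long stretch in the distal part at chr14:100847302-100852389, was used less in K562, by 1.32 (usage difference −1.32, adjusted p = 2.95e-07). It took 1.37%, 1.43% and 1.12% in K562 and 3.54%, 3.01% and 3.20% in HCT116. Bins 71 and 77 shifted the same way as bin 73, at −1.03 and −1.40, and bin 11 at −0.76, adjusted p = 0.0429. The adjoining bins 5 to 10 stood between −0.80 and −0.76 and were not called, with adjusted p from 0.0826 to 0.108 (edgeR diffSpliceDGE). The number of bins called ranged from 2 without K562 DNMT1i replicate 3 to 19 without K562 DNMT1i replicate 2, and was 5 without HCT116 DNMT1i replicate 1.

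**Figure D3:**
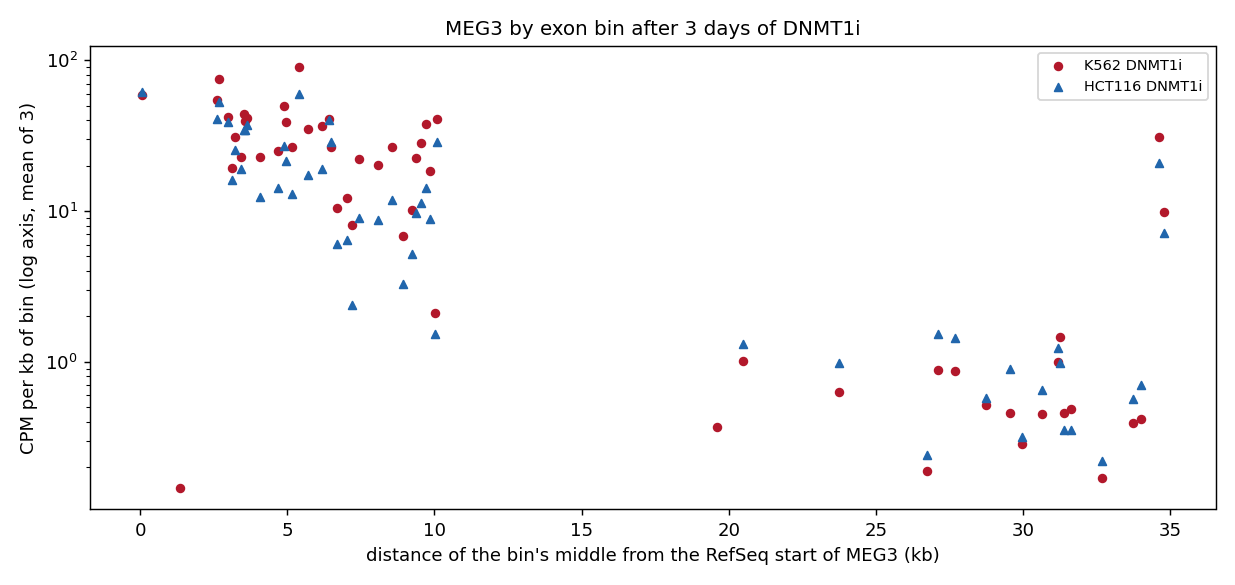
CPM per kb of each MEG3 exon bin of at least 40 bases (y axis, logarithmic, mean of 3 libraries) by distance of its middle from the RefSeq start in kb (x axis), after 3 days of DNMT1i in K562 (red circles) and HCT116 (blue triangles). K562 lies above HCT116 in most of the proximal bins, and HCT116 lies above K562 in bins such as 73. Of the 54 bins, 0 in K562 and 2 in HCT116 held no counts and are not drawn.

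MEG8 reads covered 119 of 147 bins in K562 DNMT1i and 110 in HCT116 DNMT1i, against 21 and 9 in DMSO. Its bin 82 was used more in K562, by 1.24, adjusted p = 0.04 (edgeR diffSpliceDGE), on 39 and 27 counts. MEG9 had counts in 11 of 12 bins in each treated line. Its bins 1 and 2, which lie before the RefSeq start of the window printed above, held 26 of 100 bin counts in K562 and 55 of 160 in HCT116, so part of the MEG9 signal began upstream of that start.

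In DLK1 the exon bins showed shifts that the gene total did not. Bin 17 is the last annotated stretch of the gene, chr14:100735128-100738224. In K562 it held 233, 169 and 129 counts in DMSO and 90, 78 and 78 in DNMT1i, or 1.03 ± 0.211% and 0.489 ± 0.0378% of DLK1 bin counts (SD, n = 3 each). Its relative use fell by 1.06 on the log2 scale, adjusted p = 0.000849 (edgeR diffSpliceDGE). It was the 1 of 15 tested DLK1 bins called, in a comparison in which 0.0492% of all bins were called. Without K562 DMSO replicate 1, 0 DLK1 bins were called. Usage differences were graded along the gene. Bins 2 to 8 at the 5′ end stood between 0.35 and 1.25 in the other direction, with adjusted p of 0.181 for bin 2, 0.415 for bin 5 and higher values for the rest, and bin 16 stood at −0.21. The part of RNA or library quality in these values was not tested. In the tagged K562 clone the share of bin 17 stood at 2.10%, 1.94% and 2.03% in DMSO and at 3.43%, 3.07% and 3.27% after dTAG-13, without overlap. There 0 of 14 DLK1 bins passed, against 0.132% of all bins, where bin 17 had a usage difference of 0.69 with adjusted p = 0.0593 (edgeR diffSpliceDGE). With a replicate block, 1 DLK1 bin was called there. Both tests were chosen after the bins were seen.

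In HCT116 a larger share of the few DLK1 reads lay near the 3′ end in DMSO than in DNMT1i. Bin 16, the 480 bases just before bin 17, took 43.2%, 60.0% and 45.8% of DLK1 bin counts in DMSO and 30.3%, 21.3% and 33.6% in DNMT1i. In K562 DMSO it took 32.3%, 33.5% and 36.1%, which is below every HCT116 DMSO library. Outside bins 16 and 17, HCT116 held 42 counts in DMSO and 315 in DNMT1i, a ratio of 7.07 (5.11 to 10.0). Bin 16 alone went from 42 to 126 counts, a ratio of 2.83 (1.98 to 4.11). The difference between these ratios was not tested. The split was chosen after the bins were seen. A read in several bins is counted more than once, so the interval of 5.11 to 10.0 outside bins 16 and 17 is too narrow.

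**Figure D4:**
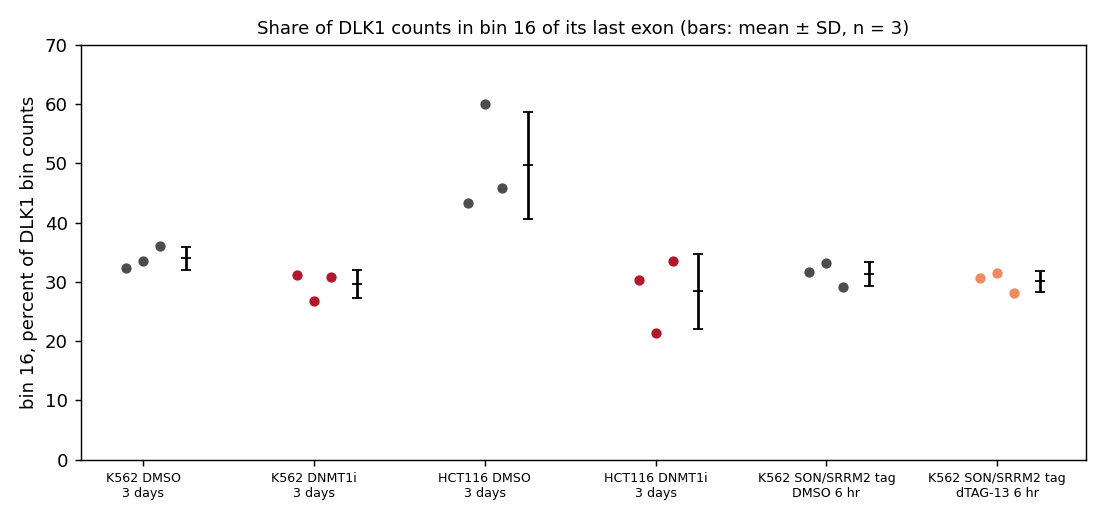
Percent of DLK1 bin counts in bin 16 (y axis) in each library of the 6 groups with bin counts (x axis), with points per library and bars at mean ± SD (n = 3). HCT116 DMSO stands at 49.7 ± 9.02%, and the other 5 groups have means between 28.4 and 34.0%.

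HT-CTCF cells after 1 day showed little or no expression of any of the 5 genes. MEG3 had 3, 0 and 2 counts in the DNMT1i libraries and 0, 0 and 1 in DMSO, and with HaloPROTAC3 0, 1 and 0 in DNMT1i and 0, 0 and 0 in DMSO. Of the 12 libraries, 4 had any MEG3 count. MEG8 had 1 count in each DNMT1i group and 0 in each DMSO group. MEG9 had 0 counts in DNMT1i, 1 in DMSO, and 2 in each HaloPROTAC3 group. DLK1 had 2 counts in a single library, given HaloPROTAC3 and DNMT1i, and RTL1 had 2 in a single DMSO library.

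No gene of the locus passed the filter on low counts in these cells, where 2.48% of all 12690 genes tested responded to DNMT1i without HaloPROTAC3 and 5.41% with it. The background of HaloPROTAC3 itself was 17.3% in DMSO and 22.4% in DNMT1i, and 0.268% for the interaction. An exact two-sided permutation test of the DNMT1i labels within each CTCF state gave a MEG3 difference of 0.145 CPM, p = 0.25. With MEG3 counts in 4 of the 12 libraries this test has little reach. For MEG9 the same exact two-sided permutation test gave a difference of −0.0156 CPM, p = 0.9. Its counts were few as well, so the test has little reach there too. For MEG8, DLK1 and RTL1 too few libraries held counts for the test to say anything. For MEG3 the ratio of DNMT1i to DMSO counts without HaloPROTAC3 was 4.57, with an interval of 0.511 to 216. A MEG3 level above 0.703 CPM in the DNMT1i group was outside its 95% Poisson interval, while 3 days in wild-type HCT116 gave 71.5 CPM. With HaloPROTAC3 and DNMT1i the upper bound was 0.321 CPM.

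By summed counts MEG3 in DNMT1i was 238-fold higher in wild-type HCT116 at 3 days than in HT-CTCF at 1 day (102 to 734), and MEG8 240-fold (43.0 to 9510). The fitted difference of the DNMT1i responses carries little for these genes. MEG3 and MEG9 entered that fit only through the wild-type DNMT1i libraries, and its HT-CTCF side rests on 5 against 1 counts for MEG3 and 0 against 1 for MEG9. The fit gave 6.68 ± 2.46 on the log2 scale for MEG3, adjusted p = 0.0389, and an adjusted p of 0.0155 for MEG9 (edgeR). MEG9, MEG8 and DLK1 each had a group at 0, which leaves their estimates unusable. The 2 calls among the 4 members fitted, where 30.7% of all 15782 genes were called, are therefore given as values only. Without HT-CTCF DMSO replicate 3, 0 members were called, and the MEG3 and MEG9 adjusted p-values were 0.991 and 0.9999. Without HT-CTCF DNMT1i replicate 2, 1 member was called, and MEG3 had an adjusted p of 0.0538. Day, clone and depth all differ between these libraries, and their parts cannot be told apart.

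Wild-type HCT116 and HT-CTCF cells also differed without DNMT1i. DLK1 in HCT116 DMSO held 60 counts, a level 5.64-fold higher than a floor of 3 counts over the HT-CTCF DMSO group, which had 0. The lower end of the exact counting interval for the ratio was 4.45. This floor sits at 0.198 CPM, and DLK1 in HCT116 DMSO at 1.12 ± 0.230 CPM (SD, n = 3). The comparison was not tested in the edgeR fit.

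The noncoding RNAs were near 0 with and without depletion of SON and SRRM2 for 6 hr. MEG3 had 4 counts over the 3 dTAG-13 libraries and 2 over the 3 DMSO libraries, MEG8 had 5 and 2, and MEG9 had 0 and 2. DLK1 stood at 177, 187 and 200 CPM with dTAG-13 and at 168, 170 and 179 CPM in DMSO. The ranges overlapped only between the lowest dTAG-13 library and the highest DMSO library. Its log2 fold change was 0.13 ± 0.07, adjusted p = 0.338 (edgeR), in a comparison in which 4.67% of genes were called. DESeq2 called 0 members as well. RTL1 was highest in this clone, with 34 counts after dTAG-13 and 18 in DMSO, a ratio of 1.62 (0.888 to 3.04).

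The tagged K562 clone expressed less DLK1 than wild-type K562. In DMSO the level was 172 ± 5.83 CPM in the clone at 6 hr and 613 ± 62.7 CPM in wild-type cells at 3 days (SD, n = 3 each), a ratio of 3.54 by summed counts (3.46 to 3.63). MEG3 was also lower in the clone, with 2 counts against 20. The lines differ in clone and in time in culture with DMSO, which cannot be told apart.

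Over the 30 libraries, MEG8 followed MEG3 most closely among the members, with a Pearson r of 0.993 on log2(CPM + 1), followed by MEG9 at 0.955, DLK1 at 0.307 and RTL1 at 0.0618. Spearman's rho was 0.771 for MEG8, 0.459 for MEG9, 0.492 for DLK1 and 0.145 for RTL1, so that MEG9 and DLK1 changed places. These values are given as a description, since the libraries fall into 6 with high MEG3 and 24 without. Among 17198 other genes, the 5 with the highest r were MAGEA10, PPP1R2C, LINC02972, TATDN2P1 and FER1L6-AS2, between 0.991 and 0.997. MAGEA10, a cancer-testis antigen gene on the X chromosome, rose from 0.150 to 36.5 CPM in K562 and from 0.0371 to 22.1 CPM in HCT116, with 0 counts in all 12 HT-CTCF libraries. By Spearman's rho, 0 of these 5 remained in the first 5, and with a pseudocount of 0.5 on the log scale 3 remained.

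Imprinted genes elsewhere in the genome gave mixed responses. Of 14 maternally expressed genes of other loci, 9 were tested in K562, with 3 higher and 0 lower, and 13 in HCT116, with 9 higher and 3 lower. Of all genes, 6.47% were called higher and 2.38% lower in K562, and 33.8% higher and 27.9% lower in HCT116. H19, a maternally expressed noncoding RNA, rose by 3.56 ± 0.12 in K562, adjusted p = 1.76e-08, and by 7.01 ± 0.18 in HCT116, adjusted p = 2.28e-17 (edgeR). ZNF597 rose by 2.27 ± 0.42 in K562 and TFPI2 by 9.28 ± 0.58 in HCT116. Of 23 paternally expressed genes, 1 of 9 tested was higher in K562, which was MEST at 6.16 ± 0.27, and 9 of 15 were higher in HCT116 with 1 lower. The median log2 fold changes of the maternally and paternally expressed lists were 0.093 and 0.11 in K562, against −0.0021 over all genes tested, and 0.44 and 0.44 in HCT116, against 0.024. In HCT116 PEG10, of the same gag-like family as RTL1, rose by 2.23 ± 0.08, and NNAT by 7.24 ± 0.46.

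Among 19 genes that establish or keep imprints, ZFP57, a zinc finger protein that binds methylated imprint control regions, rose by 11.48 ± 0.36 in HCT116, adjusted p = 1.06e-14 (edgeR). KHDC3L and NLRP7 rose there as well, by 8.91 ± 0.61 and 4.96 ± 0.47. In HCT116, 7 of 17 tested rose and 3 fell, against 33.8% and 27.9% of all genes. In K562 0 of 13 rose and 1 fell, against 6.47% and 2.38% of all genes. The gene that fell was CTCF, at −0.35 ± 0.10 with adjusted p = 0.0498. The median log2 fold change of the list was 0.077 in HCT116 and −0.099 in K562.

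DLK1 acts on the Notch pathway, and 27 of its genes were followed. In K562, 1 of 20 tested was higher and 2 were lower, against 6.47% and 2.38% of all genes. In HCT116 10 of 26 were higher and 4 lower, against 33.8% and 27.9%. MFNG, which modifies Notch receptors with sugars, rose in both lines, by 2.25 ± 0.42 in K562 and 2.37 ± 0.32 in HCT116. HES1, a target gene of Notch, fell by 0.54 (−0.54 ± 0.14, adjusted p = 0.0382, edgeR) in K562. NRARP and NOTCH1 rose by 1.59 ± 0.11 and 1.02 ± 0.10 in HCT116. Of 14 genes of the gag-like family of RTL1, 2 of 5 tested were higher in K562, and 9 of 11 were higher and 1 lower in HCT116, beside the same shares of all genes. RTL8B rose by 5.54 ± 0.50 there. The medians of the Notch list were 0.034 in K562 and −0.033 in HCT116, and those of the gag-like list 0.069 and 1.22.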

How the data were processed

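Poly(A) RNA libraries with molecular identifiers (Lexogen CORALL) were made from the 10 groups. Per the labels and the study's methods, the authors trimmed reads with cutadapt 2.7, aligned them to hg38 with STAR 2.6.0, removed duplicates with UMI-tools 1.1.1 and counted reads per gene with HTSeq against an Ensembl annotation. How strand was treated in counting is not stated in any source used here. The deposited values are raw counts per gene for all 30 libraries and counts per exon bin for the 18 wild-type and speckle libraries. The authors' DEXSeq tables gave the bin coordinates, and their own fold changes, p-values and 18 columns of per-sample values were not used. Rows that name no gene held 17.1% to 23.6% of the table total and stayed out of library sizes and tests.

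Groups were taken from the sample labels. Each comparison was fitted over all tested genes with edgeR 4.0.16 in R 4.3.3 (TMM scaling, filterByExpr, quasi-likelihood F test, Benjamini-Hochberg adjustment, threshold 0.05), with SE as the log2 fold change divided by the root of F. CPM scales the count of a gene to a library total of 1000000 counts in genes. Exon bins were tested with diffSpliceDGE. Ratios of summed counts have exact binomial 95% intervals and levels exact Poisson intervals, and a group at 0 was set at a floor of 3 counts over the group. Both fits were tested on simulated data. DESeq2 1.42.0, no filter, a replicate block and leaving out each library were the alternatives.

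Members, gene lists and tests were chosen with earlier results of these data known. Text names the 5 members, the nearest tested neighbour on each side, the 5 genes most like MEG3 and up to 3 genes with the smallest p of each list in each wild-type line. DIO3 and SNORD113-3 lie outside that rule and were chosen after their values were seen. The 3 samples of a group are separate cultures of 1 line, so p-values measure the spread between cultures.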

Additional observations from a re-analysis of the deposited data

Results flagged for a closer look

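The DNMT1i response of DLK1 differed between K562 and HCT116 by −2.22 on the log2 scale when the difference itself was tested (edgeR, adjusted p = 1.78e-07). DLK1 was lower in mean after DNMT1i in K562, without passing its own test, and higher in 3 of 3 HCT116 libraries than in every HCT116 DMSO library.

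The DNMT1i response at 3 days in wild-type HCT116 exceeded that at 1 day in HT-CTCF cells by 6.68 for MEG3 and by 10.42 for MEG9 on the log2 scale (edgeR, adjusted p = 0.0389 and 0.0155). Both genes entered that fit only through the wild-type DNMT1i libraries, and its HT-CTCF side rests on 6 MEG3 counts and 1 MEG9 count over 6 libraries. The MEG9 value is above the response of 8.22 fitted in wild-type HCT116 itself, since 0 counts in DNMT1i against 1 in DMSO enter the HT-CTCF side as a fall. Without HT-CTCF DMSO replicate 3 neither gene was called, with adjusted p = 0.991 for MEG3 and 0.9999 for MEG9. Neither value is a bound. Clone, day and depth cannot be told apart here.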

How the results depend on the processing

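Of 216 member results with 1 library left out, 212 kept their direction and their side of the threshold. Without K562 DMSO replicate 2 the line difference of MEG3 turned to 0.33, and it ranged from −0.71 to 0.33 over the libraries left out. The number of members called for the 3 day against 1 day difference was 2, and was 0 to 2 with 1 library left out and 1 without the low count filter. There the MEG3 value was 3.81 without HT-CTCF DMSO replicate 3, 6.13 without HT-CTCF DNMT1i replicate 2 and 6.68 without the filter (adjusted p = 0.0709), and MEG9 was 7.67 without HT-CTCF DMSO replicate 3. DESeq2 gave MEG8 7.08 in that comparison, adjusted p = 0.00153. The number of member bins called between the treated lines ranged from 2 to 19 with 1 library left out. TMM scaling of the levels moved MEG8 in K562 DNMT1i to 13.3 CPM, DLK1 in K562 DMSO to 689 CPM and DLK1 in the tagged K562 clone in DMSO to 165 CPM. The other 47 of 50 levels moved by less than 1 SD. The causes were not tested.

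Same-numbered replicates shared only a number, with correlations of their deviations from −0.234 to 0.401 and no pair of groups above 0.1 in all 3. A replicate block gave 3 members called in K562, 4 in HCT116 and 1 for the line difference, and 10 member bins instead of 8. It called 1 DLK1 bin after dTAG-13, and the DLK1 speckle response had an adjusted p of 0.0597.

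Depth limits the HT-CTCF libraries most, where 3 counts over a group stand for 0.119 to 0.198 CPM. Folds against DMSO rest on 0 to 20 counts for MEG3, MEG8 and MEG9.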
